A study of Homo sapiens with 13 samples.

Results

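The DEAD and DEAH box RNA helicases are enzymes that use ATP to open or rearrange RNA duplexes and to pull proteins off RNA. They are described here as 54 protein-coding genes of the 59204 gene IDs in the count tables, namely every gene that GENCODE 29 calls protein-coding and whose symbol is DDX or DHX, a number and at most 1 letter. Of these, 38 carry a DDX and 16 a DHX symbol. DDX3Y and the pseudogenes were left out. The cells were K562, an established human line of chronic myeloid leukaemia. All groups were this line, for which the labels give no genetic change. In 12 libraries the cells had received 30 µM 4-thiouridine (4sU), a uridine analogue that enters new RNA, for 12 h with fresh medium every 3 h, and were then washed and given 3 mM uridine. They were collected 0, 1, 2, 4, 8 or 12 h into this chase, with 2 replicates at each time, and 1 library without replicate came from cells that never received 4sU. RNA was treated with iodoacetamide, which makes labelled uridines read as a base change, and reads came from the 3' ends of transcripts. The series is named for the measurement of decay rates, and for each gene it gives a total read count and a count of labelled reads.

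The helicase core is built from a pair of RecA-like domains that bind RNA and ATP between them. The family is named after one of its conserved stretches, motif II, whose acidic residues hold the magnesium of the bound ATP. DEAD box proteins as a rule pull apart short duplexes without moving along them, and often need a partner of the MIF4G type. DEAH box proteins move along single-stranded RNA, and many are switched on by proteins with a G-patch. Nearly every step in the life of an mRNA or a ribosome uses members of the family, and a growing leukaemia cell makes both in quantity.

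The stretch that names the family was looked up in 1 transcript of each gene, to show which form of the box each helicase carries. DEAD was found in 29 of 38 DDX genes and DEAH in 8 of 16 DHX genes. Of the 8380 coding genes tested for decay, 1.04% hold codons for DEAD anywhere in their coding sequence and 0.489% hold codons for DEAH. The search read the coding frame only, so a match is a description and not a proof of the box. The other forms were DECD in DDX39A and DDX39B, DEVD in DDX21 and DDX50, DEIH in DHX9 and DHX36, DECH in DDX58 and DHX58, and DEVH in DHX29, DHX30, DHX34, DHX57, DDX60 and DDX60L. DDX11 carries DEAH under a DDX symbol, DDX17 and DHX29 hold a further match (DECD and DEAD), and none of these words was found in DHX32 or DDX52. The 30 bases around the box, from the GRCh38 genome with GENCODE 29 coordinates, are shown for the genes on which the results turn, with the 12 bases of the box in capitals. They lie within the coding exons of DDX20 at chr1:111760530-111760559 (+ strand), DDX5 at chr17:64503236-64503265 (- strand), DDX28 at chr16:68022327-68022356 (- strand), DHX38 at chr16:72104066-72104095 (+ strand), DHX9 at chr1:182867008-182867037 (+ strand), DHX36 at chr3:154304921-154304950 (- strand), DDX39A at chr19:14410999-14411028 (- strand) and DDX21 at chr10:68967119-68967148 (+ strand).
DDX20: tttattcttGATGAAGCAGATaagctttta
DDX5: cttgtccttGATGAAGCAGATagaatgctt
DDX28: ttggtgttgGATGAGGCAGACacactgctg
DHX38: atcatcatgGACGAGGCCCACgagcgctcc
DHX9: gtaattgtaGATGAAATACATgaaagagat
DHX36: atcgtacttGATGAAATCCATgaaagaaat
DDX39A: tttgtgctgGACGAGTGTGACaagatgctg
DDX21: gttgtcctgGATGAAGTGGACcagatgttg
DDX20 and DDX5 share the same 12 box bases, and DHX9 and DHX36 hold the DEIH form that no DDX gene carries.

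The libraries held 9004529 to 17425584 counts, and a gene at 0 could hold up to 3 counts, or 1.72e-05% to 3.33e-05% of a library. The floors and the Wilson interval of labelled counts cover counting error only. Half-life intervals were widened by the scatter of the libraries around each fit where it exceeded counting error. Nothing in the labels ties the replicates to separate cultures, and p-values then reflect the spread of these libraries alone, which could be technical. The Drosophila RNA added as a spike-in split the libraries by its own composition: the first component of 597 spike-in genes held 68.4% of their variance. One side held every library up to 2 h with the first replicate of 4 h, and the other held the remaining ones, among which the library without 4sU also fell. This side runs almost with chase time, and results with the side as a factor are given beside the counts below. All 8 erythroid markers, among them the fetal globins that K562 cells make, had a mean of at least 5 CPM (the gene's counts scaled to a common library size). Of the markers of other blood cells, 0 of 3 of megakaryocytes, 1 of 4 of lymphocytes (CD3D) and 1 of 4 of monocytes and granulocytes (LYZ) reached that level, and PF4 was at 0 in every library.

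Helicase transcripts took up a larger part of the library as the chase went on. All 54 genes together held 0.361% ± 0.0042 (SD, n = 2) of the counts at 0 h and 0.585% ± 0.0048 at 12 h, against 0.504% in the single library without 4sU. Between 49 and 52 members had at least 1 count in a library. CPM are shares of a library, so a rise of one gene and a fall of the rest cannot be told apart, nor can fewer cells with a transcript and less of it per cell. Without 4sU only 4 of the 87764 counts of the members were labelled, or 0.00456% (95% Wilson interval 0.00177 to 0.0117%). The label seen below is thus read against a background near 0.

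Loss of label was measured for 43 members, those with a mean of 5 CPM and at least 100 labelled counts over the chase. For each gene the labelled counts, scaled to the size of the whole library, were fitted with a line on the log2 scale and its slope was compared with that of the median gene. Of the 43 members, 16 lost label faster than the median gene, 16 slower and 11 did neither (edgeR quasi-likelihood test, adjusted p under 0.05). Among all 9652 genes tested, 36.0% were called faster and 36.3% slower, so the counts of the family are close to those of any gene. Each replicate series taken alone put all 32 called members on the side of their call. The calls were made from these same libraries, so this is a description and no separate support. A scaled labelled count goes down when labelled molecules are lost and also when unlabelled RNA grows around them, which cannot be told apart here.

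The median of the apparent half-lives was 4.09 h for the members (SD 0.151 h between the replicate series) and 4.30 h for all genes fitted. They ran from 1.83 h for DDX20 to 9.88 h for DHX38, with 5 members under 3 h and 9 over 6 h. Of all genes, 24.3% were under 3 h and 29.5% over 6 h. With the side of the spike-in as a factor, 11 members were faster and 8 slower, against 21.7% and 24.9% of all genes. When labelled counts were scaled to the total of the same gene, which follows the labelled share of that gene, 21 were faster and 11 slower (38.3% and 39.8% of all genes), with medians of 3.43 h for the members and 3.79 h for all genes. On this scale the half-lives of members ran from 1.63 h for DDX28 to 10.1 h for DHX9. Both scales called the same 14 members faster and the same 10 slower. DDX6, DDX21, DDX23, DHX8 and DHX37 passed as faster on the scale of their own totals alone and DHX15 as slower (edgeR adjusted p = 0.00478), DDX17 and DDX3X went from slower to faster, and DDX19A, DDX27, DDX42, DDX54, DHX40 and DHX57 lost their calls there. The plot of half-lives by role shows that each of the larger role groups spans a wide range.

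**Figure D1:**
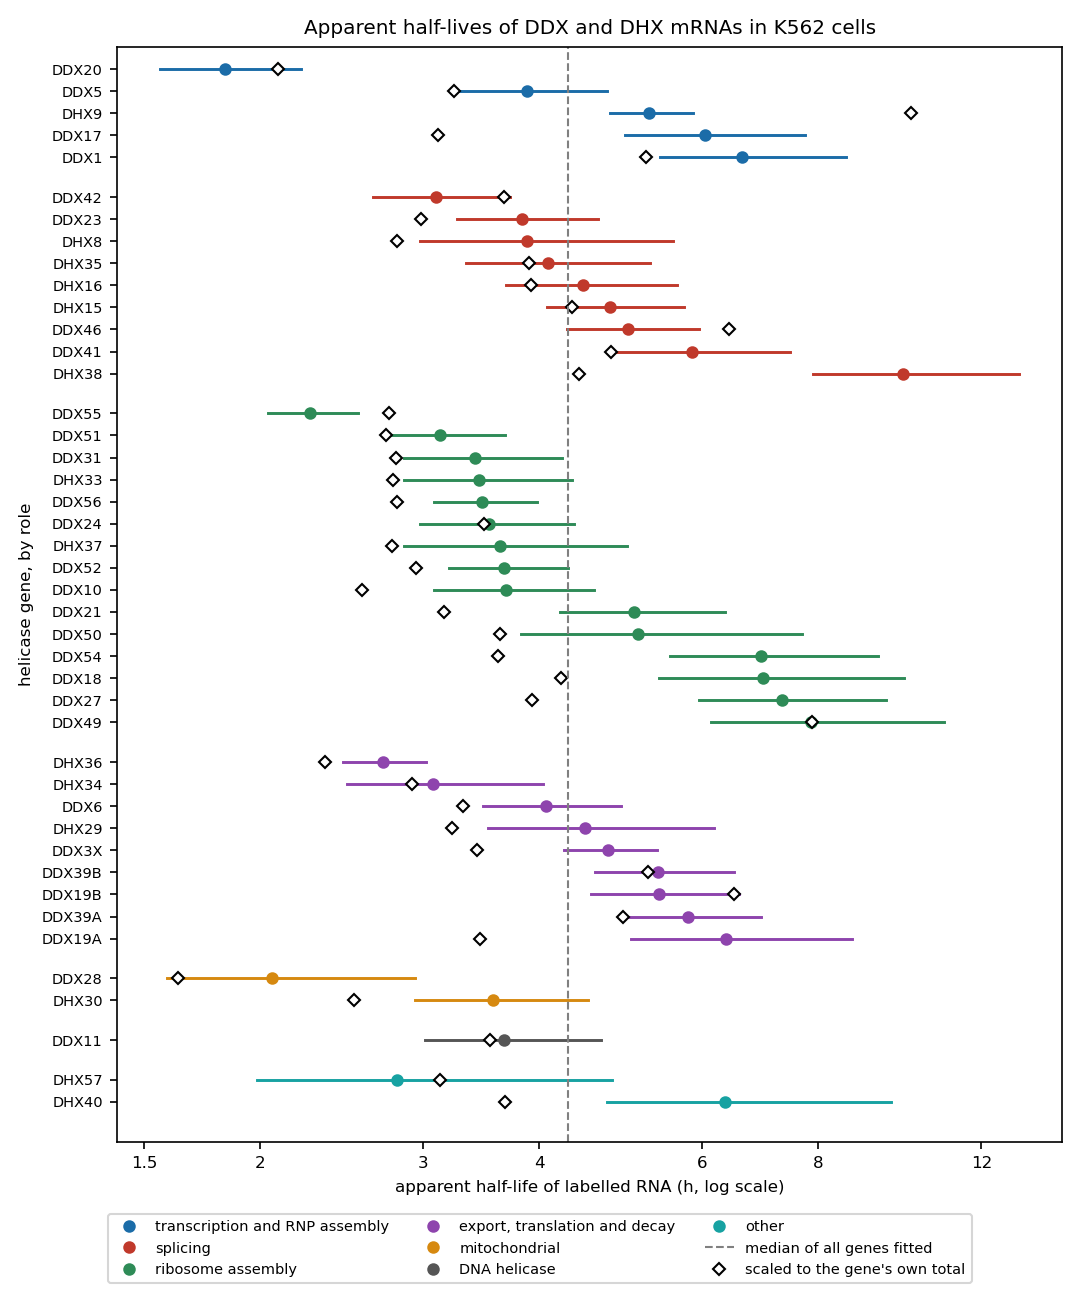
Apparent half-life of labelled RNA (log scale, in h) for the 43 members with a fit, grouped by role. Filled points with bars are the half-life and its 95% interval when scaled to the library, open diamonds the half-life when scaled to the gene's own total, and the dashed line the median of all genes fitted at 4.30 h. Among filled points DDX20 lies lowest at 1.83 h and DHX38 highest at 9.88 h. The diamonds of DDX17, DDX19A, DDX54 and DHX38 lie far to the left of their points.

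Among the helicases of transcription and RNP assembly, 2 of 5 lost label faster and 3 slower than the median gene. DDX20 (Gemin3) is a part of the SMN complex that loads Sm proteins onto small nuclear RNA. It had the shortest half-life of the members fitted when scaled to the library. Its labelled CPM were 21.6 and 22.3 for 0 h, 16.3 and 19.6 for 1 h, 14.7 and 14.3 for 2 h, 5.86 and 5.1 for 4 h, 0.837 and 0.681 for 8 h and 0.174 and 0.234 for 12 h. Each time lay below the one before it with no overlap between groups. DDX20 had a half-life of 1.83 h (95% interval 1.56 to 2.22 h), with a slope below the median by 0.36 log2 units per h, SE 0.0288, edgeR adjusted p = 3.54e-11. The labelled share of its reads was 67.3% ± 2.57 at 0 h and 1.08% ± 0.242 at 12 h (mean ± SD of 2 replicates, as for all shares below).

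DDX5, a cofactor of many transcription factors and of microRNA processing, and its close relative DDX17 differed. DDX5 had labelled CPM of 174 and 186 for 0 h, 169.7 and 175 for 1 h, 161 and 173 for 2 h, 126 and 125 for 4 h, 55.1 and 51.4 for 8 h and 19.3 and 17.7 for 12 h. Those of DDX17 were 65.3 and 68.1 for 0 h, 62.2 and 53.7 for 1 h, 58.2 and 55.5 for 2 h, 52.5 and 54.2 for 4 h, 36.8 and 31.1 for 8 h and 13 and 15.3 for 12 h. At 4 h DDX17 overlapped with its own values of 1 h, while DDX5 lay below all of its earlier libraries. The half-life of DDX5 was 3.88 h (95% interval 3.29 to 4.73 h) and that of DDX17 6.05 h (95% interval 4.96 to 7.75 h) (edgeR adjusted p = 0.00489 for faster and 0.000365 for slower than the median gene). The labelled shares of both were alike, at 70.7% ± 0.787 at 0 h and 4.87% ± 0.288 at 12 h for DDX5 and 71.5% ± 0.371 at 0 h and 5.09% ± 0.483 at 12 h for DDX17. On the scale of its own total DDX17 turned from slower to faster, with a half-life of 3.11 h, and once the spike-in side was in the fit neither gene was called (edgeR adjusted p = 0.054 for DDX5 and 0.431 for DDX17).

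DHX9 (RNA helicase A), which unwinds RNA and RNA-DNA hybrids at transcribed genes, stood apart by its labelled share late in the chase. Its labelled CPM were 75.8 and 88.4 for 0 h, 71.4 and 69.3 for 1 h, 65.5 and 69.7 for 2 h, 52.1 and 47.9 for 4 h, 28.6 and 27.3 for 8 h and 21.5 and 18.1 for 12 h. The CPM of all its reads were 125 and 139.7 for 0 h, 132 and 125 for 1 h, 129.7 and 138 for 2 h, 136 and 95.8 for 4 h, 84.6 and 78.9 for 8 h and 71.6 and 73.1 for 12 h, so the replicates of 4 h lie far apart, the first near the early libraries and the second near the late ones. The labelled share was 62.1% ± 1.72 at 0 h and 27.4% ± 3.69 at 12 h, the highest of the 43 members at 12 h. Scaled to the library the half-life was 5.26 h (95% interval 4.76 to 5.87 h), and scaled to its own total 10.1 h. DDX1, a part of the tRNA ligase complex that also binds DNA breaks, had a half-life of 6.63 h (95% interval 5.4 to 8.58 h) and labelled CPM of 23.5 and 27.3 for 0 h, 13.4 and 15.2 for 4 h and 9.21 and 8.35 for 12 h.

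The 9 splicing helicases drive the steps by which the spliceosome is put together, activated and taken apart. DDX42 lost label faster than the median gene, DDX46, DDX41 and DHX38 lost it slower, and the other 5 passed in neither direction. DHX38 is the human Prp16 that acts at the second step of splicing. When scaled to the library it had the longest half-life of the members fitted, at 9.88 h (95% interval 7.91 to 13.2 h). Its labelled CPM were 26.5 and 29.7 for 0 h, 23.5 and 24.9 for 1 h, 24.7 and 25.9 for 2 h, 26.2 and 27.1 for 4 h, 17.7 and 17.3 for 8 h and 11.9 and 12.2 for 12 h. The values at 1 and 2 h lay just below those at 0 h and the values at 4 h overlapped with them, whereas 8 and 12 h lay below every earlier library. Its slope was above the median by 0.14 log2 units per h, SE 0.0126, edgeR adjusted p = 5.27e-10, and it kept its call with the gene's own total as the scale at 4.42 h. All its reads went from 48 and 47.0 CPM at 0 h to 125 and 131 at 12 h.

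DDX42, which joins the U2 particle, was labelled in 81.5% ± 0.394 at 0 h and 5.62% ± 0.144 at 12 h of its reads. Its half-life was 3.09 h (95% interval 2.65 to 3.73 h) with an edgeR adjusted p of 8.47e-07, and with its own total as the scale it lost its call at 0.074. DDX41, a splicing factor whose germline variants predispose to myeloid leukaemia, had a half-life of 5.85 h (95% interval 4.8 to 7.47 h). Its labelled share was only 28.5% ± 0.73 at 0 h and 4.89% ± 1.68 at 12 h. DDX46 (Prp5) had 4.99 h (95% interval 4.29 to 5.95 h). It overlaps C5orf24 on the same strand, with means of 61.8 CPM for DDX46 and 48.8 CPM for C5orf24. How shared reads were assigned is not known here, so the reads of DDX46 are uncertain. The 5 in between were DDX23 (3.83 h), part of the U5 particle, DHX8 (3.88 h), which frees the spliced mRNA, DHX35 (4.09 h), DHX16 (4.46 h), the human Prp2, and DHX15 (4.77 h), which takes spliceosomes apart. DDX23 passed as faster without replicate 1 of 0 h (edgeR adjusted p = 0.0487).

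Ribosome assembly takes the largest number of helicases, which rearrange the pre-ribosomal RNA in the nucleolus. Of 16 listed, 15 had a slope: 8 lost label faster than the median gene, 4 slower and 3 neither, with a median half-life of 3.67 h. The group thus held genes called on both sides of the median gene. DDX55, whose yeast relative Spb4 acts on the large subunit, had labelled CPM of 77.2 and 87.7 for 0 h, 65.0 and 65.4 for 1 h, 51.9 and 53.5 for 2 h, 27.5 and 20.7 for 4 h, 9.37 and 5.54 for 8 h and 2.09 and 2.96 for 12 h. Each time lay below the one before it with no overlap. Its half-life was 2.27 h (95% interval 2.04 to 2.55 h) and its slope lay below the median by 0.20 log2 units per h, SE 0.0168, edgeR adjusted p = 6.26e-11.

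The other 7 faster genes were DDX51 (3.12 h), DDX31 (3.41 h), DHX33 (3.45 h), DDX56 (3.47 h), DDX24 (3.53 h), DDX52 (3.67 h) and DDX10 (3.69 h). They lie in a narrow band, and the 95% intervals of all 7 overlap. DHX33 shares its locus and strand with C1QBP, so its reads are uncertain. The slower genes of the group were DDX54 (6.94 h), DDX18 (6.98 h), DDX27 (7.31 h) and DDX49 (7.86 h). DDX27 and DDX49 had the longest half-lives among ribosome assembly helicases, with 95% intervals of 5.95 to 9.46 h and 6.13 to 10.9 h. The labelled CPM of DDX27 were 46.0 and 38.5 for 0 h, 40.8 and 39.1 for 1 h, 37.5 and 43.5 for 2 h, 34.1 and 37.5 for 4 h, 27.1 and 24.5 for 8 h and 11.4 and 14.4 for 12 h. The ranges of 0, 1 and 2 h overlapped, 4 h lay just under them, and 8 and 12 h lay far below.

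DDX27 and DDX49 reached their long half-lives from different shares. DDX27 was labelled in 66.1% ± 0.501 at 0 h and 8.08% ± 1.33 at 12 h of its reads, and DDX49 in 21.5% ± 3.05 at 0 h and 6.48% ± 0.921 at 12 h, the lowest share of the 43 members at 0 h. Scaled to their own totals the half-lives were 3.93 h and 7.88 h. DDX27 then lost its call (edgeR adjusted p = 0.197), and DDX54 turned to the faster side of the median without passing (edgeR adjusted p = 0.269). Once the spike-in side was in the fit, DDX54 also missed the threshold (edgeR adjusted p = 0.369).

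DDX21, a nucleolar helicase that links polymerase I transcription to rRNA processing, had a mean of 860.0 CPM over the 13 libraries. Its labelled CPM were 385 and 422 for 0 h, 383 and 368 for 1 h, 370.0 and 393 for 2 h, 327 and 325 for 4 h, 169 and 174 for 8 h and 72.0 and 67.5 for 12 h. The values of 0 and 2 h overlapped, and the large drop came after 4 h. The half-life was 5.06 h (95% interval 4.21 to 6.34 h), and it was not called (edgeR adjusted p = 0.0995), although without replicate 2 of 12 h it passed as slower (edgeR adjusted p = 0.0498). Its own total went from 496 and 532 CPM at 0 h to 1231 and 1296 at 12 h, so on that scale the half-life was 3.16 h and the call faster (edgeR adjusted p = 3.31e-07). Its sister gene DDX50 had 5.11 h (95% interval 3.83 to 7.68 h) and was not called either. DHX37, needed for the small subunit, had 3.63 h and was not called, but passed as faster without replicate 2 of 0 h (edgeR adjusted p = 0.0211). DDX47, which also belongs to this group, had at most 0.17 CPM. It lies over APOLD1 on the same strand, which had 17.3 to 37.8 CPM, and whether reads of DDX47 were given to APOLD1 was not tested.

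Export, translation and decay of mRNA use 9 members, of which 2 lost label faster and 5 slower than the median gene. DHX36, which melts G-quadruplexes in RNA and DNA, had labelled CPM of 27.8 and 33.3 for 0 h, 25.9 and 26.3 for 1 h, 19.7 and 17.3 for 2 h, 13.4 and 13.4 for 4 h, 4.52 and 4.34 for 8 h and 1.22 and 1.25 for 12 h. Every later time lay below both values of 0 h, and 4, 8 and 12 h lay below every earlier library. DHX36 had a half-life of 2.71 h (95% interval 2.46 to 3.02 h), and DHX34, a factor of nonsense-mediated decay, 3.07 h (95% interval 2.48 to 4.04 h). The slower genes were both mRNA export pairs and DDX3X. DDX39A and DDX39B (UAP56), which hand spliced mRNA to the export machinery, had 5.79 h (95% interval 4.97 to 6.94 h) and 5.38 h (95% interval 4.59 to 6.49 h). A read-through gene with ATP6V1G2 overlaps DDX39B on the same strand. It had a mean of 0.81 CPM against 350 CPM for DDX39B, and how shared reads were assigned is not known here. DDX19A and DDX19B, which release mRNA at the nuclear pore, had 6.37 h (95% interval 5.02 to 8.71 h) and 5.38 h (95% interval 4.55 to 6.58 h).

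DDX3X, which helps ribosomes start on structured mRNA, had 4.74 h (95% interval 4.26 to 5.36 h) and a labelled share of 71.9% ± 1.63 at 0 h and 6.74% ± 0.0759 at 12 h. Its call was a narrow one (edgeR adjusted p = 0.0481). It was lost without replicate 1 or 2 of 1 h (edgeR adjusted p = 0.0613 and 0.056), replicate 2 of 2 h (0.0837), replicate 2 of 8 h (0.0731) and replicate 1 or 2 of 12 h (0.176 and 0.137). DDX19B lost its call without replicate 1 of 12 h (edgeR adjusted p = 0.0759). Once the spike-in side was in the fit, DDX39B, DDX19B and DDX3X were no longer called (edgeR adjusted p = 0.105, 0.256 and 0.615). DDX6, the helicase of P-bodies that represses translation and promotes decapping, had 4.07 h (95% interval 3.48 to 4.9 h) and was not called, but passed as faster without replicate 2 of 0 h (edgeR adjusted p = 0.0376). DHX29, which helps the small subunit scan, had 4.48 h and was not called.

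Both mitochondrial helicases lost label faster than the median gene. DDX28, which assembles mitochondrial ribosomes, had labelled CPM of 9.34 and 10.2 for 0 h, 9.1 and 11.3 for 1 h, 7.89 and 8.13 for 2 h, 2.42 and 2.15 for 4 h, 1.09 and 0.341 for 8 h and 0.608 and 0 for 12 h. The last library held no labelled read of it. Its half-life of 2.06 h (95% interval 1.59 to 2.94 h) was longer only than that of DDX20 among the 43, and once the spike-in side was in the fit it missed the threshold (edgeR adjusted p = 0.0914). DHX30, which binds mitochondrial transcripts, had 3.56 h (95% interval 2.94 to 4.52 h). DDX11, a DNA helicase of sister chromatid cohesion, had 3.66 h and was not called. Of 4 members without a set role 2 had a slope, and of these DHX57 had 2.81 h (95% interval 1.99 to 4.79 h) and DHX40 6.34 h (95% interval 4.74 to 9.58 h). The faster call of DHX57 rested on few counts and was lost without replicate 2 of 0 h, replicate 1 of 1 h or either replicate of 12 h (edgeR adjusted p = 0.111, 0.0759, 0.112 and 0.129). Neither DHX57 nor DHX40 was called once the spike-in side was in the fit (edgeR adjusted p = 0.17 and 0.418).

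The 11 members that did not reach the limits of the decay test had few counts in these libraries. Among them DDX47 lies over APOLD1, as given above, so its count need not show its level. The germ line helicases DDX4 (VASA), DDX25 and DDX43 and the RNA sensors DDX58 (RIG-I, now RIGI), DDX60 and DDX60L stayed under 1 CPM in every library, and DDX4 and DDX60 were at 0 in all 13. DHX58 (LGP2), a partner of the sensors, had at most 1.26 CPM. DDX53, a cancer-testis gene, lay between 1.97 and 3.58 CPM. DDX59 and DHX32 were low as well, and their totals are given below. With no CPM minimum and 10 labelled counts as the limit, 6 of the 11 had a slope, and 1 of these, DDX53, was called faster than the median gene (edgeR adjusted p = 0.0103).

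**Figure D2:**
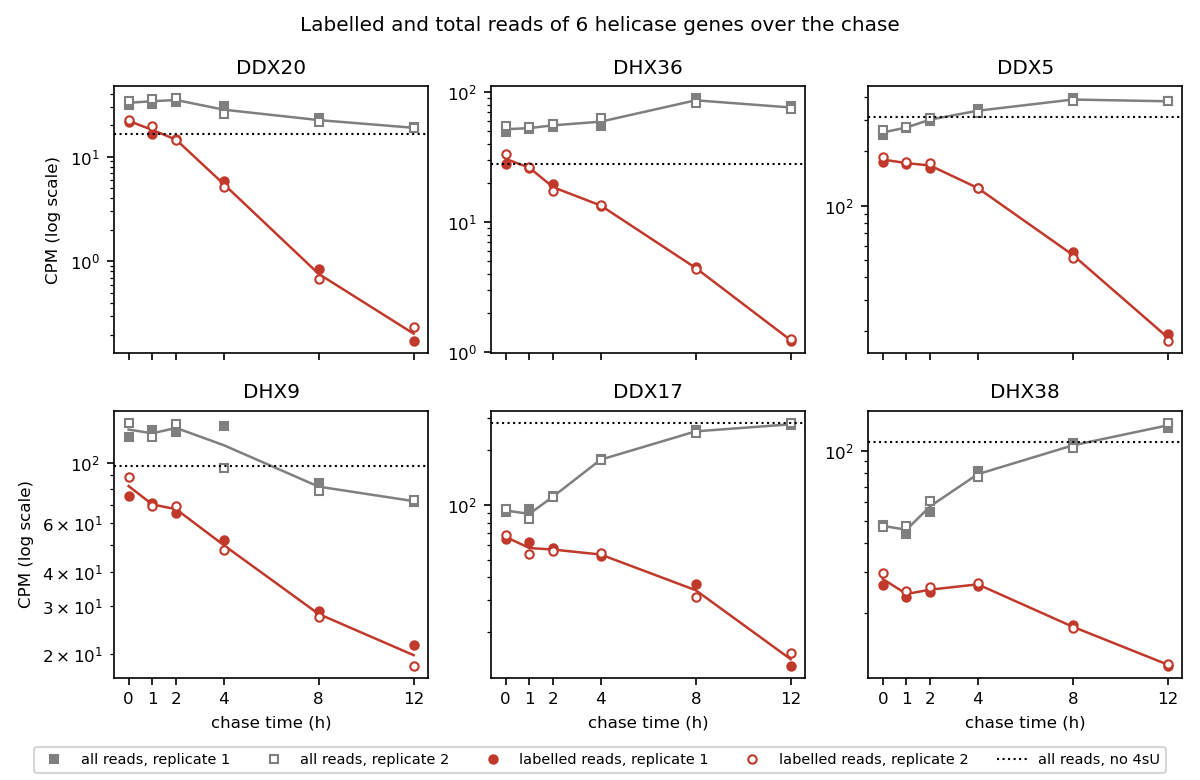
CPM (log scale) of all reads in grey and of labelled reads in red against chase time in h for 6 genes, with replicate 1 filled, replicate 2 open, lines through the means and a dotted line at the total of the library without 4sU. Labelled reads of DDX20 run from 21.6 and 22.3 at 0 h to 0.174 and 0.234 at 12 h, while those of DHX38 are nearly flat up to 4 h and its total reads climb.

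A single half-life does not describe a bent course, so a quadratic term was tested too. For 4 of 43 members it lay below the median term and for 3 above it, against 3.54% and 3.68% of all genes. A term below the median means a slower start and a faster late loss than the median gene has. The median term was itself negative, at −0.0088 for all genes and −0.011 for the members. The typical course thus already bent this way. The 4 were DHX33, DDX5, DDX21 and DDX42 (edgeR adjusted p = 0.0184, 0.0457, 0.028 and 0.0343). The 3 were DDX1, DHX9 and DDX46 (edgeR adjusted p = 0.000405, 0.00484 and 0.00323). In DDX1, with a fast start and a slower late loss, its labelled CPM at 8 h (10.0 and 8.35) overlapped with those at 12 h. The count of 4 fell to 0 without replicate 1 of 0 h, to 1 without replicate 1 of 4 h or either replicate of 12 h, and to 2 without replicate 2 of 4 h or replicate 1 of 8 h, while the 3 stayed at 3 whichever library was left out. In the first hour the labelled CPM of 14 members lay below both values of 0 h and 1 member lay above them, against 30.3% and 9.7% of all genes.

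Total reads of most helicases were higher at the end of the chase than at its start. At 12 h against 0 h, 30 of 48 members tested were higher and 7 lower (edgeR, adjusted p under 0.05), against 27.0% and 29.1% of all 16255 genes. The median log2 fold change was 0.47 for the members and −0.06 for all genes. The CPM at 12 h lay above those of 0 h without overlap in 37 of 48 members and below in 7, as they did in 42.7% and 34.6% of all genes. Once the spike-in side was in the fit, 25 were higher and 5 lower (17.9% and 19.2% of all genes). With spike-in totals as library sizes, which moves the median of all genes to 0.36, 37 were higher and 4 lower (40.4% and 13.7% of all genes). The direction was the same with each of these scalings.

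Among members that passed, the largest rises at 12 h were those of DHX32, DDX17 and DDX19A. DHX32 was scarce, with 0.994 and 0.777 CPM at 0 h and 3.91 and 2.96 at 12 h, a log2 fold change of 1.78 (SE 0.44, edgeR adjusted p = 0.00116). DDX17 had total CPM of 90.9 and 95.5 for 0 h, 94.5 and 84.1 for 1 h, 112 and 110.5 for 2 h, 178 and 177 for 4 h, 259 and 249.5 for 8 h and 274 and 281 for 12 h. These values climb from 2 h on, and the log2 fold change was 1.43 (SE 0.072, edgeR adjusted p = 3.13e-15). DDX19A went from 26.0 and 31.7 to 81.9 and 87.2 CPM, with 1.41 (SE 0.10, edgeR adjusted p = 2.62e-12).

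Among members that passed, the largest falls were those of DHX9, DDX59 and DDX20. DHX9 had a log2 fold change of −1.02 (SE 0.10, edgeR adjusted p = 1.68e-09), from the CPM given above. DDX20 had total CPM of 31.2 and 34.1 for 0 h, 32.1 and 35.4 for 1 h, 33.3 and 36.2 for 2 h, 30.6 and 25.6 for 4 h, 23.2 and 21.5 for 8 h and 19.0 and 18.6 for 12 h, and its log2 fold change was −0.94 (SE 0.12, edgeR adjusted p = 7.98e-08). For both genes the libraries of 12 h lay below those of 0 h without overlap. DDX59, a helicase linked to craniofacial development, went from 3.18 and 2.89 to 1.91 and 1.56 CPM with −0.96 (SE 0.36, edgeR adjusted p = 0.026). Its call was lost with DESeq2 (adjusted p = 0.0903), without replicate 1 or 2 of 0 h (edgeR adjusted p = 0.139 and 0.0608) and without replicate 2 of 12 h (0.14). With spike-in totals the edgeR adjusted p was 0.244, with no filter on low counts 0.0505 and with the side as a factor 0.721. The other lower members were DDX55, DDX42, DDX46 and DDX19B, with log2 fold changes of −0.83, −0.68, −0.53 and −0.36.

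By role, 12 of 15 ribosome assembly helicases were higher at 12 h and 1, DDX55, was lower, with a median log2 fold change of 0.75. Of 9 members of export, translation and decay 7 were higher and DDX19B lower, with a median of 0.40. Of 9 splicing members 4 were higher (DHX38, DHX8, DDX23 and DDX41) and 2 lower, with a median of 0.20. Both mitochondrial members were higher, at 1.2 for DDX28 and 0.98 for DHX30. Scaled to the library, DDX28 and DHX38 show that a rising total goes with a short half-life in one gene and the longest in another. The 8 erythroid markers moved in the same contrast, 3 higher and 5 lower with a median of −0.59, and their part in the result was not tested.

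**Figure D3:**
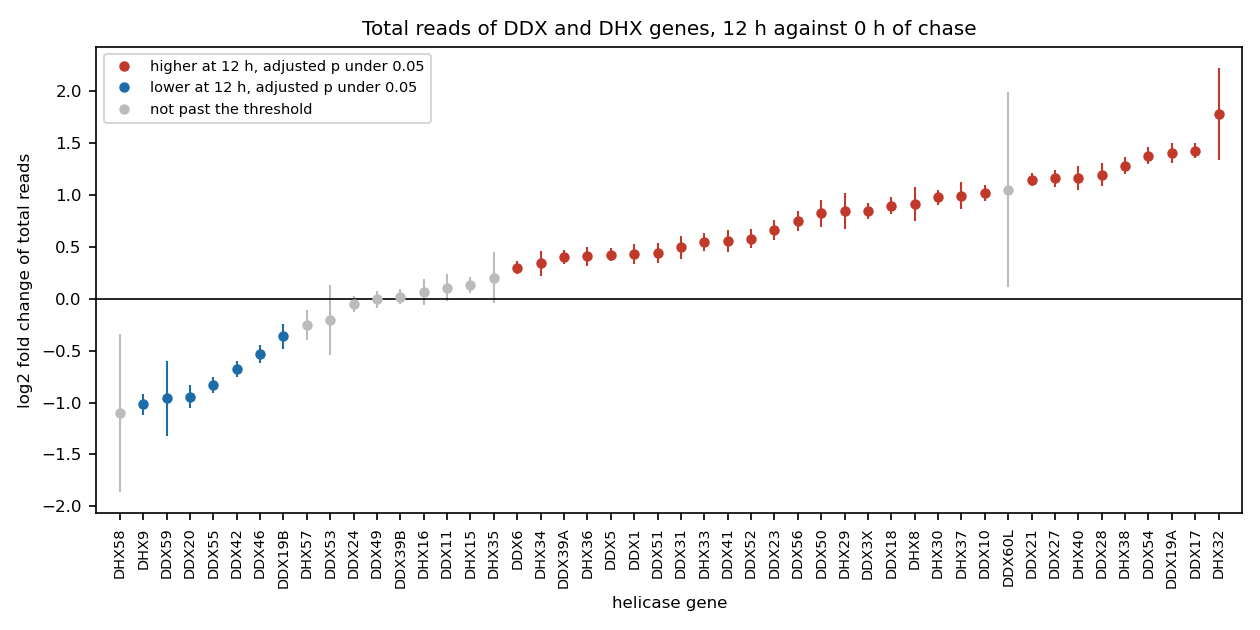
Log2 fold change of total reads at 12 h against 0 h of chase for the 48 members tested, in order of size, with bars for the standard error. Red points (30) are higher and blue points (7) lower at an edgeR adjusted p under 0.05 and grey points pass in neither direction. Most of the family lies above 0, with DHX32, DDX17 and DDX19A at the upper end. The direction of the counts was the same with spike-in totals as library sizes.

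Fewer members differed at earlier times. At 1 h against 0 h no member passed in edgeR or DESeq2, and of all genes only 0.32% were higher and 0.0369% lower. An unadjusted edgeR p under 0.05 was reached by 7 of 48 members and by 1250 of all 16255 genes. At 4 h 20 members were higher and 8 lower, against 16.7% and 15.5% of all genes, with medians of 0.19 and −0.03. With the side as a factor the counts were 18 and 6 (14.2% and 12.9% of all genes), and with spike-in totals, which move the median of all genes to 0.10, they were 20 and 2 (19.2% and 6.4% of all genes). The lower count was 4 when any library of 0 or 1 h was left out, and 5 when replicate 1 of 2 h was. Of those that passed as higher, DDX17, DHX40 and DHX8 rose most by 4 h, with log2 fold changes of 0.84 (SE 0.072, edgeR adjusted p = 1.39e-09), 0.81 (SE 0.12, edgeR adjusted p = 7.02e-06) and 0.76 (SE 0.17, edgeR adjusted p = 0.000883). Of those that passed as lower, DDX19B, DDX46 and DDX55 fell most, with −0.50 (SE 0.12, edgeR adjusted p = 0.00191), −0.48 (SE 0.084, edgeR adjusted p = 7.12e-05) and −0.45 (SE 0.074, edgeR adjusted p = 3.24e-05). With spike-in totals the fall of DDX19B missed the threshold (edgeR adjusted p = 0.0743).

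The library without 4sU shows the level of each helicase in cells that were not labelled. It has no replicate, was assumed to vary like the others, and shares 0 h and 12 h with the contrasts above, so values are set side by side only. Against it 10 of 48 members were higher and 23 lower at 0 h (33.5% and 31.8% of all genes), with medians of −0.28 for the members and 0.06 for all genes. At 12 h 16 were higher and 13 lower (26.2% and 24.9% of all genes), and both medians were 0.05. With the side as a factor the counts were 7 and 20 at 0 h (26.0% and 24.2% of all genes) and 17 and 14 at 12 h (27.3% and 26.1%). With spike-in totals, which move the median of all genes to 0.54 at 0 h and 0.94 at 12 h, 22 and 13 members passed at 0 h (46.4% and 18.4% of all genes) and 38 and 1 at 12 h (62.3% and 5.52%), and the median of the members at 0 h turned to 0.20. The direction at 0 h thus depends on the scale.

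Of the members that passed, DHX32, DDX41 and DDX50 were lowest at 0 h against no 4sU. DDX41 had 317 CPM without 4sU, 52.0 and 44.0 for 0 h, 37.7 and 39.7 for 4 h and 86.8 and 70.5 for 12 h. None of the chase libraries came near the unlabelled one, and the log2 fold changes were −2.77 (SE 0.11, edgeR adjusted p = 1.17e-17) at 0 h and −2.22 (SE 0.11, edgeR adjusted p = 1.17e-15) at 12 h. DDX50 had 97.6 CPM without 4sU and 26.8 ± 2.41 at 0 h, a log2 fold change of −1.92 (SE 0.14, edgeR adjusted p = 2.19e-12). DHX32 had 6.77 CPM without 4sU, with −2.97 (SE 0.45, edgeR adjusted p = 1.86e-06) at 0 h and −1.19 (SE 0.36, edgeR adjusted p = 0.00817) at 12 h. DHX58 was also among the lowest at 12 h, with −1.93 (SE 0.76, edgeR adjusted p = 0.0359). Without replicate 2 of 12 h the falls of DHX32 and DHX58 against no 4sU missed the threshold (edgeR adjusted p = 0.0733 and 0.237), as they did with DESeq2 (adjusted p = 0.0732 and 0.143) and with spike-in totals (edgeR adjusted p = 0.503 and 0.248).

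Of the members that passed, DDX55, DDX20 and DHX33 were highest at 0 h against no 4sU. DDX55 had 84.8 CPM without 4sU and 171 and 192 at 0 h, with 1.04 (SE 0.094, edgeR adjusted p = 2.08e-10). DDX20 had 16.4 CPM without 4sU, with 0.94 (SE 0.14, edgeR adjusted p = 1.38e-06) at 0 h. Scaled to the library, these 2 genes with very short half-lives were back near the unlabelled level at 12 h. Their log2 fold changes there were 0.21 and −0.00085 (edgeR adjusted p = 0.0581 and 0.999). Spike-in totals move the median of all genes in this contrast to 0.94, so this return depends on the scale. It also rests on the single library without 4sU. DHX33 stayed high, with 0.84 (SE 0.11, edgeR adjusted p = 3.1e-07) at 0 h and 1.38 (SE 0.11, edgeR adjusted p = 4.85e-11) at 12 h. DHX36 and DHX37 were, after DHX33, the highest at 12 h among members that passed, with 1.24 (SE 0.11, edgeR adjusted p = 5.59e-10) and 1.18 (SE 0.16, edgeR adjusted p = 3.68e-07).

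Pairs of helicases were compared within each library, where depth cancels out. Of 10 pairs listed 9 could be tested, since DDX60 and DDX60L were too scarce. The slope of the log2 ratio of labelled counts on chase time was tested over 12 libraries by permutation (100000 resamples, two-sided, Benjamini-Hochberg adjusted over the 9 pairs). No pair shares a run of 30 bases within the last 500 bases of its transcripts. In 5 pairs the ratio changed.

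The ratio of DHX9 to DHX36, both with a DEIH box as printed above, rose by 0.20 log2 units per h (SE 0.016, permutation adjusted p = 9e-05 from a p of 1e-05, the smallest the resamples can give). The ratio of DHX8 to DHX38, which act late in splicing, fell by 0.14 per h (SE 0.027, permutation adjusted p = 0.00115). That of DDX5 to DDX17 fell by 0.10 per h (SE 0.011, permutation adjusted p = 0.00018). DDX3X gained on DDX6 by 0.053 per h (SE 0.0093, permutation adjusted p = 0.00115), and DDX39A on DDX39B by 0.016 per h (SE 0.005, permutation adjusted p = 0.0207). The last call was lost without replicate 2 of 12 h (permutation adjusted p = 0.0693).

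The other 4 pairs did not pass. DDX19A and DDX19B had a slope of 0.024 per h (SE 0.012, permutation adjusted p = 0.104), DDX21 and DDX50 −0.0025 (SE 0.019, 0.902), DHX33 and DHX37 −0.038 (SE 0.023, 0.17) and DDX27 and DDX54 0.0093 (SE 0.0099, 0.421). Without replicate 1 of 0 h the pair of DHX33 and DHX37 passed at −0.054 per h (permutation adjusted p = 0.0278). Ratios of labelled shares gave a different picture for several pairs. The slope of DDX5 to DDX17 was then −0.0056 per h (permutation adjusted p = 0.688), that of DDX39A to DDX39B turned to −0.016 (0.0473), and that of DDX19A to DDX19B turned to −0.12 (9e-05). DDX3X to DDX6 lost its call at 0.01 per h (permutation adjusted p = 0.117) and DDX27 to DDX54 gained one at 0.023 (0.0112). DHX9 gained on DHX36 on both scales, with 0.34 per h in the ratio of shares (SE 0.016, permutation adjusted p = 9e-05).

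**Figure D4:**
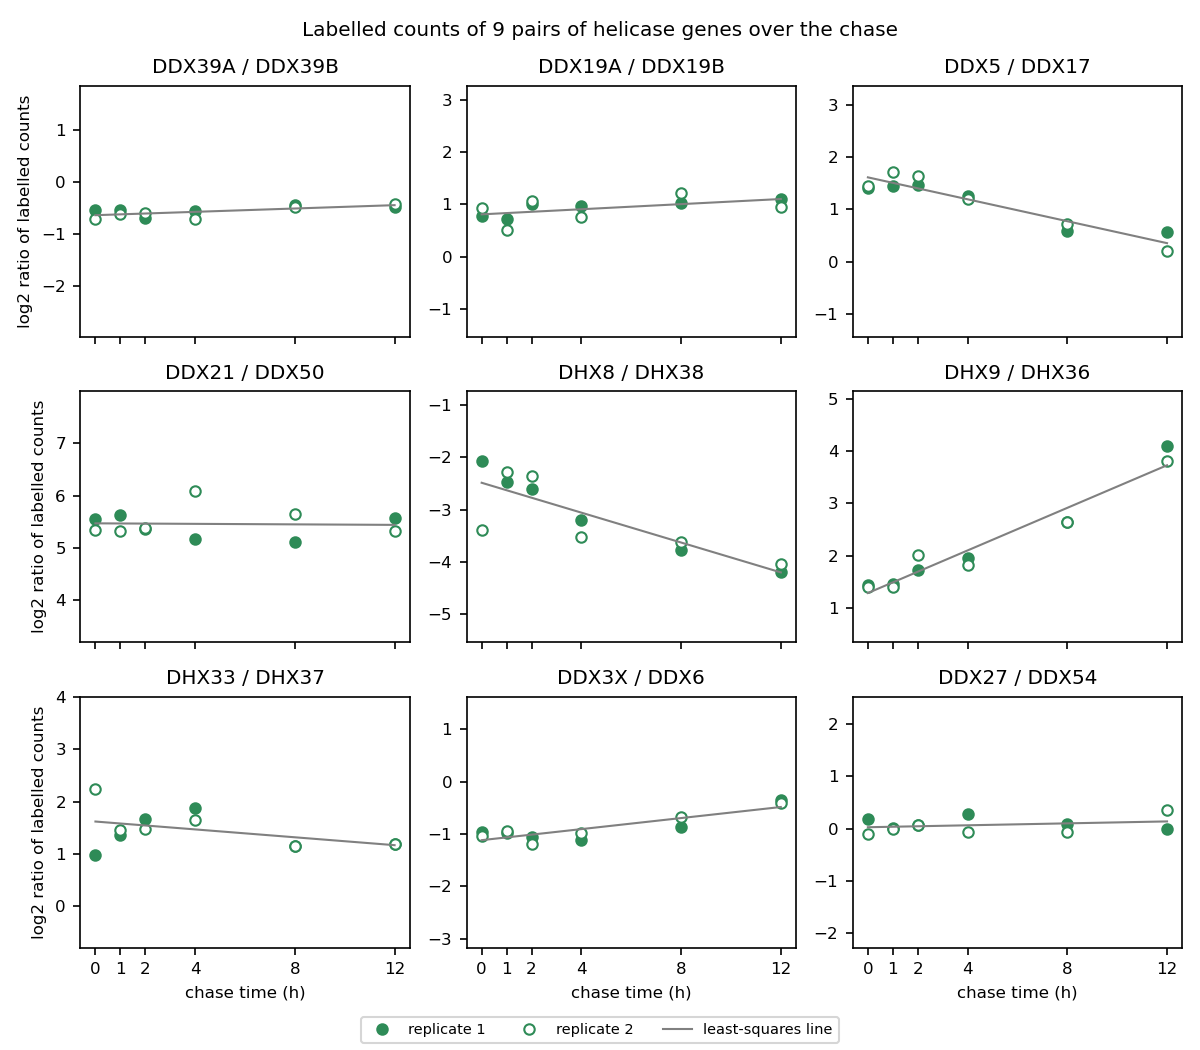
Log2 ratio of labelled counts of the first to the second gene (0.5 added to each) against chase time in h for 9 pairs, with replicate 1 filled, replicate 2 open and the least-squares line. Every panel spans the same 4.8 log2 units. The ratio of DHX9 to DHX36 climbs and those of DHX8 to DHX38 and DDX5 to DDX17 decline, while the line of DDX27 to DDX54 has a slope of 0.0093 per h, within its error.

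The ends of the transcripts were searched for 2 short motifs known from mRNA decay, ATTTA, the core of AU-rich elements, and TGTANATA, bound by Pumilio proteins. Only the transcript's own strand and the last 300 bases were read, in 33 tested members and 6924 tested genes whose 3' UTR is that long. ATTTA was in 18 of 33 members (54.5%) and in 49.3% of all, and TGTANATA in 3 of 33 (9.09%) and in 10.7%. The members with ATTTA had a median half-life of 4.08 h and those without 3.63 h, against 3.93 and 4.07 h for all genes. DDX20 and DHX38, the shortest-lived and longest-lived members when scaled to the library, hold ATTTA, and so does DHX36. Scaled to their own totals the ends were DDX28 (1.63 h) and DHX9 (10.1 h), and neither holds ATTTA in this window. For DDX20, DHX36 and DHX38, 1 site each is shown as 30 bases with the motif in capitals. They lie in the 3' UTR of DDX20 at chr1:111767961-111767990 (+ strand), DHX36 at chr3:154272764-154272793 (- strand) and DHX38 at chr16:72112879-72112908 (+ strand). DHX36 holds 3 matches in the window, and its printed stretch has a further ATTTA that overlaps the one in capitals.
DDX20: ctgtaaattacgATTTAgaaaaatataatt
DHX36: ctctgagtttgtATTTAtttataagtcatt
DHX38: atttggaaataaATTTAttatttgtaaaac
A match is a string of letters and no sign that a factor binds there.

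Helicase transcripts have long coding sequences, with a median of 2352 bases against 1338 for all coding genes tested, and short 3' UTRs, with 705 against 1094 bases. These lengths are those of 1 annotated transcript per gene. The one used for DDX17 has a 3' UTR of 0 bases in the annotation, and it entered the values with that length. Across the 43 members the half-life had a Spearman correlation of −0.30 with the length of the 3' UTR and −0.20 with that of the coding sequence. Across all genes these were −0.26 and −0.24. The labelled share at 0 h and the half-life had a Spearman correlation of 0.074 across the 43 members and −0.42 across all 9652 genes. These are descriptions across genes measured in the same libraries, and genes are not independent replicates.

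RNA helicases without a DDX or DHX symbol and the proteins that drive helicases were counted in the same way. The symbol rule alone sets these helicases apart from the members, so they are not a group outside the family. Of 19 other RNA helicases, such as EIF4A1, UPF1 and SNRNP200, 15 had a slope: 4 were faster and 6 slower, with a median half-life of 4.72 h. Their totals at 12 h against 0 h were higher in 8 and lower in 5 of 17, with a median of 0.24. Of 29 cofactors with G-patch, MIF4G or related parts, 28 had a slope: 12 were faster and 8 slower, with a median half-life of 3.56 h. Their totals were higher in 18 and lower in 5 of 28, with a median of 0.45. Of all genes tested, 36.0% were faster and 36.3% slower, and totals at 12 h were higher in 27.0% and lower in 29.1%. Differences between these lists and the members were not tested.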

How the data were processed

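Total and labelled (nascent) read counts per gene were deposited by the authors as whole numbers for 13 libraries. Per the labels' protocols, 3' end libraries of K562 RNA mixed with Drosophila S2 RNA were made after alkylation. The submitters' processing notes list hg38, dm6, bedtools, Trim Galore 0.6.5 and bcl2fastq 2.17.1.14. The aligner, the rule for a labelled read and the use of strand were not given in the sources used here. The members and lists were chosen with earlier results of these data known.

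Depth ran from 9004529 to 17425584 counts, and replicates differed by more than sampling noise. Of the 59204 gene IDs, 55838 were in GENCODE 29, which gave symbols and types. Of the 56 symbol hits among annotated genes, 54 were kept. Decay was tested with edgeR 4.0.16 (R 4.3.3) as the quasi-likelihood slope of labelled counts on chase time in 12 libraries, with TMM sizes of the totals as the offset and the median slope as the null, for genes with a mean of 5 CPM and 100 labelled counts. Totals were tested with edgeR over 7 groups after filterByExpr, with Benjamini-Hochberg adjustment over all genes tested and a threshold of 0.05. Half-lives are quasi-Poisson fits with the labelled share without 4sU as background. Pairs used a permutation test of log2 ratios (0.5 added, 100000 resamples). Scripts were tested on simulated data. Alternatives were other offsets and size factors, DESeq2 1.42.0, filters, time windows, a replicate block, the spike-in side and each library left out. Genes given with values were those with the 2 lowest and 2 highest half-lives per role, the pairs, and the 3 largest rises and falls of each contrast. Other genes given with whole courses were chosen after their values were seen.

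Erythroid markers summed to 4290 to 12980 CPM, lymphocyte markers to 17.5 to 35.9, monocyte and granulocyte markers to 5.1 to 16.0 and megakaryocyte markers to 1.17 to 3.68.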

Additional observations from a re-analysis of the deposited data

How the results depend on the processing

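The counts of faster and slower members were 14 to 17 and 13 to 16 when any 1 library was left out. With times from 0 to 4 h alone they were 7 and 5, against 1903 and 1668 of all 9652 genes. With side of the spike-in as a factor 8 members were slower, against 24.9% of all genes. The median half-life was 3.43 h on the scale of each gene's own total, 4.72 h with spike-in totals, 5.67 h from 0 to 4 h, 3.65 h from 2 to 12 h and 3.92 to 4.34 h when a library was left out. The quadratic term counted 2 below and 5 above with each gene's own total, against 604 and 654 of all 9652 genes. When a library was left out it counted 0 to 4 below. Members lower at 4 h numbered 4 with DESeq2 (1913 of 13733 genes) and 2 with spike-in totals (6.4% of all genes). They numbered 5 with no filter (2081 of 33094 genes) and 4 to 8 when a library was left out. Spike-in totals also gave 4 lower at 12 h against 0 h, 22 higher and 13 lower at 0 h against no 4sU, and 38 and 1 for 12 h against no 4sU. The cause was not tested.

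In ratios of labelled shares the slope of DDX39A to DDX39B turned to −0.0161 per h (adjusted p = 0.0473 by permutation) and that of DDX19A to DDX19B to −0.123 (9e-05). DDX5 to DDX17 then gave −0.0056 (0.688), DDX3X to DDX6 0.0101 (0.117) and DDX27 to DDX54 0.0231 (0.0112). From 2 to 12 h DHX33 to DHX37 passed at −0.0547 per h (0.044). With a library left out DDX39A to DDX39B ran from 0.0144 to 0.0187 and DHX33 to DHX37 from −0.0542 to −0.0217. Slopes against the median gene changed sign with each gene's own total for DDX17 (−0.0536), DDX19A (−0.0239), DDX21 (−0.054), DDX3X (−0.0221), DDX54 (−0.0106) and DHX40 (−0.0069). From 0 to 4 h they changed sign for DDX1 (−0.0556), DDX3X (−0.00253), DDX5 (0.0148) and DHX9 (−0.0249). Among single genes 1065 values under an alternative kept direction and side of the threshold, 52 lost it and 15 gained it.

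With the replicate block 15 members were faster and 16 slower, against 3437 and 3490 of all 9652 genes. For totals at 4 h 20 members were higher and 8 lower, against 2793 and 2639 of all 16255 genes. At 12 h they were 30 and 7, against 4420 and 4790. Set against no 4sU the counts were 12 and 22 for 0 h (5402 and 5174 of all genes). For 12 h they were 16 and 13 (4159 and 4031 of all genes). DHX57 missed the threshold with the block (edgeR adjusted p = 0.0501). Between times, the deviations of same-numbered libraries had correlations of −0.14 to 0.39 over 15 pairs, with 4 over 0.1. Whether same-numbered libraries shared a culture or a batch cannot be told from these values or the labels. With 2 replicates a time the spread is known poorly, and members of few counts such as DHX57, DDX59, DHX58 and DHX32 are limited by depth.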
